A study of Mus musculus with 13 samples.

Results

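In the mouse hepatoma line Hepa 1-6, the regions called for acetylated histone H3 lysine 27 (H3K27ac) were set against those called for monomethylated histone H3 lysine 4 (H3K4me1). The members were all regions of both lists, 131576 of the 231368 regions in the 8 lists of the series. They comprised 57562 H3K27ac and 74014 H3K4me1 regions. A region was classed as overlapping when it shared at least 1 bp with a region of the other list and as H3K27ac only or H3K4me1 only otherwise. The class is therefore the rule by which regions were sorted and not a finding.

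Both marks were profiled by ChIP-seq, the sequencing of DNA that an antibody pulls down with its chromatin, in Hepa 1.6 cells under standard culture, with the antibodies ab4729 (Abcam, H3K27ac) and pAb-037-050 (Diagenode, H3K4me1). KAP1, a corepressor brought to DNA by zinc finger proteins, and H3K9me3, a mark of silenced chromatin, were profiled under the same culture, and RNA polymerase II (PolII) in cells given a short hairpin RNA (shRNA) against KAP1 or a control 5 days before fixation. On the control the sources differ, since the labels name a control shRNA and the study's methods name an empty vector. Each antibody and condition had 1 library from this single line, so no value below has a replicate error and no test between the marks was possible. The histone lists held positions only, with neither a score nor a read count, which leaves the depth behind them unknown. Shares carry 95% Wilson intervals and ratios 95% intervals, all of which cover counting error over regions only. Any statement that a place lacks a mark means that no region was called there. The H3K27ac, H3K4me1, KAP1 and control PolII lists were sparse on chromosomes 9, 12, 14 and 16, and values on or without these chromosomes are given where they bear on a result.

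H3K27ac is laid by the acetyltransferases p300 and CBP on nucleosomes beside active promoters and enhancers. H3K4me1 is laid mainly by MLL3 and MLL4, marks enhancers whether or not they are active, and flanks active promoters at a distance where the trimethylated form occupies the nucleosomes next to the start. The DNA bound by transcription factors lies between such nucleosomes, so a regulatory element often appears as a short space between marked regions.

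Such spaces were therefore read in mm9 (NCBIM37), a step added after the regions had been examined, and 2 are printed to show what lay between neighbouring H3K27ac regions more than 3 kb from any transcription start site (TSS). Each was the exon-free space of 200 to 300 bp closest to the start of a gene in one of the gene lists described below, with both flanking H3K27ac regions overlapping H3K4me1. Only spaces holding a match to TGANTCA, the site of the AP-1 factors (Fos and Jun dimers), were eligible, so the presence of the site in them is part of the choice. The sequences run 5′ to 3′ on the plus strand, and capitals mark the AP-1 match.
Space downstream of Ier5, chr1:156923062-156923302: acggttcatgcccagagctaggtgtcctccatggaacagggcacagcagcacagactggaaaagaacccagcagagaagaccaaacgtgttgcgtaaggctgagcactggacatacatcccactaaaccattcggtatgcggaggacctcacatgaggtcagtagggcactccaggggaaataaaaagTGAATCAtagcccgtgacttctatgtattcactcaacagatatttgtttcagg
Space inside Kat2b, chr17:53717594-53717888: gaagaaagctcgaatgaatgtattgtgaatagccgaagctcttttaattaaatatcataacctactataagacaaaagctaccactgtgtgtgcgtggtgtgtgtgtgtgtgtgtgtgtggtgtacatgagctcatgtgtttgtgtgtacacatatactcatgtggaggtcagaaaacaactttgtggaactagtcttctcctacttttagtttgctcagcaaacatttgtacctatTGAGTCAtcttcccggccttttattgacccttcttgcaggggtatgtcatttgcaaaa
The space in an intron of Kat2b, which encodes an acetyltransferase, lay 11.6 kb from the gene start and held 4 CpG dinucleotides. The other lay 23.6 kb past the start of the immediate early gene Ier5 and held 6, and its centre was inside a KAP1 peak. Both had their centre inside an H3K4me1 region, as did 4096 of 15461 distal H3K27ac spaces, so the examples are of the less frequent kind.

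Across the genome, 22710 spaces of 200 to 1000 bp separated neighbouring H3K27ac regions, with a median of 379 bp. Of these, 15466 were centred more than 3 kb from a TSS, and of the 15461 whose window holds no unknown base 27.2% (26.5 to 27.9%) held TGANTCA on either strand within their central 200 bp. The centres of the H3K27ac regions themselves held it in 8.22% (7.89 to 8.56%) of overlapping and 7.02% (6.60 to 7.47%) of H3K27ac-only regions at the same distance. All distal 200 bp tiles of the genome held it in 5.97%. The site was thus more frequent between the acetylated regions than in their middle. The form TGACTCA (and its complement TGAGTCA), read separately after the values had been seen, was found in 22.6% of distal spaces against 3.10% of tiles, while TGAATCA (or TGATTCA) was found in 6.58% against 2.97%.

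Spaces between H3K4me1 regions, which were wider (median 459 bp), held the same site less often, and the part of width in this difference was not tested. Of the distal spaces between neighbouring H3K4me1 regions, 17.9% (17.3 to 18.4%) had a match, against 9.34% of overlapping and 9.17% of H3K4me1-only region centres. Of the distal H3K27ac spaces, 29.9% (29.0 to 30.9%) had a match where both flanking regions overlapped H3K4me1, 22.4% (21.2 to 23.7%) where 1 did and 26.2% (24.7 to 27.8%) where neither did. The share was highest with H3K4me1 on both sides, but it did not rise step by step with the number of sides. A match was found in 44.3% (41.6 to 47.1%) of the 1288 distal H3K27ac spaces whose centre lay in a KAP1 peak, against 25.7% of the rest. For control PolII peaks a match was found in 26.4% (22.7 to 30.6%) of the spaces centred in one, against 27.2% of the rest. It was found in 22.1% (20.9 to 23.4%) of the spaces whose centre lay in an H3K4me1 region and in 29.1% (28.2 to 29.9%) of those whose centre did not. It was found in 5.32% (3.80 to 7.42%) of the 601 whose centre lay in an H3K9me3 region. The part in this share of the windows of repeated gene copies described at the end, where calls are uncertain, was not tested. The share fell with the width of the space, from 34.4% at 200 to 300 bp to 14.2% at over 500 bp, and the window searched was of the same size in all.

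**Figure D1:**
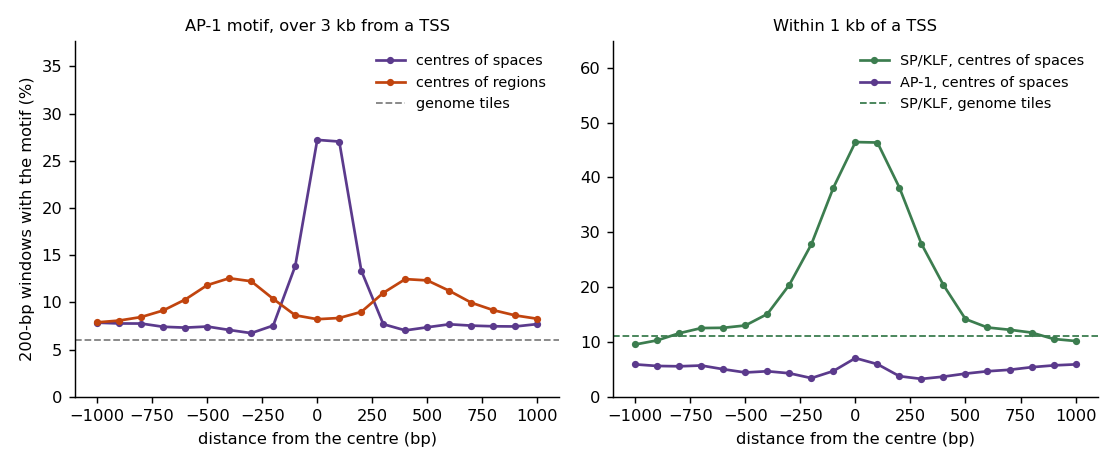
Percent of windows of 200 bp holding a motif (y axis) by distance in bp from the centre of a space or region (x axis), for AP-1 over 3 kb from a TSS and for SP/KLF within 1 kb of one. AP-1 reached 27.2% at the centre of H3K27ac spaces and 27.04% 100 bp to the right of it, and around the centres of distal overlapping H3K27ac regions it was lower at the centre (8.22%) than 400 bp to the left (12.6%) or right (12.47%).

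Matches were not centred exactly. The 8919 AP-1 matches around distal H3K27ac spaces had a median offset of 41 bp toward higher coordinates, and a shift in the same direction was seen for H3K4me1 spaces (34 bp) and for SP/KLF matches near a TSS (31 bp). All printed intervals and distances, those from gene starts included, use the positions of the files without a shift, so distances of this size or less carry that uncertainty.

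Sites of liver factors were less distinct in the same distal spaces. FOXA (TGTTTAC) was found in 4.90% (4.57 to 5.25%) of spaces and 3.01% of tiles, HNF1 (GTTAATNAT) in 1.30% (1.13 to 1.49%) and 0.73%, and HNF4 (CAAAGTCCA) in 0.45% (0.36 to 0.57%) and 0.25%. TEAD (ACATTCCA), bound by the effectors of YAP, was found in 2.14% (1.92 to 2.38%) against 0.95%. C/EBP (TTNNGCAA) was found in 8.73% (8.29 to 9.18%) of spaces, below the 9.48% of tiles. The central 200 bp of these spaces held 46.6% G and C, against 41.4% in the tiles. The part of base composition in these shares was not tested. A match describes letters in a window and does not show that a factor was bound there.

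Spaces near a TSS held a different mix of sites. Of the spaces between H3K27ac regions centred within 1 kb of a TSS, 46.4% (45.0 to 47.8%) held GGGCGG, the site of the SP/KLF factors, against 11.1% of genome tiles at that distance and, among H3K27ac region centres there, 3.75% of overlapping and 12.8% of H3K27ac-only ones. GGGCGG was not particular to these spaces. Distal H3K27ac spaces held it in 6.62% (6.24 to 7.03%), against 1.77% of distal overlapping H3K27ac region centres. Where the centre of the distal space lay in a control PolII peak the share was 24.9% (21.3 to 29.0%). Near a TSS, ETS (CCGGAAGT) was found in 4.14% (3.62 to 4.74%) against 0.54% of tiles, YY1 (AAGATGGCG) in 1.87% (1.52 to 2.29%) against 0.28%, and NRF1 (GCGCATGCG) in 1.58% (1.27 to 1.97%) against 0.20%. AP-1 stood at 7.06% (6.37 to 7.81%) there, against 4.97%. These near spaces averaged 32.9 CpG dinucleotides in 500 bp, against 12.1 in genome tiles at the same distance, and the SP/KLF, ETS, YY1 and NRF1 sites all hold a CpG, so the part of base composition in their shares was not tested.

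The centres of spaces lay in KAP1 and PolII peaks more often than the centres of all H3K27ac regions did. Of all H3K27ac spaces, 13.98% had their centre in a KAP1 peak and 10.7% in a control PolII peak, against 7.56% and 4.23% of H3K27ac region centres. For H3K9me3 the values were 3.09% and 3.31%. The H3K4me1 list filled the H3K27ac space completely in 20.4% of cases (4640 spaces) and left it wholly free in 53.3%.

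At gene starts H3K27ac lay nearer to the start than H3K4me1. The annotated starts of the 22367 protein-coding genes lay inside an H3K27ac region in 3.99% and inside an H3K4me1 region in 2.76%. Upstream, H3K27ac reached 17.99% of genes at 400 bp and H3K4me1 20.3% at 700 bp. Downstream the peaks lay at 900 bp (17.5%) and 1400 bp (24.96%). Among the 2941 genes with control PolII at their promoter, H3K27ac peaked at 58.2% upstream (600 bp) and 59.2% downstream (900 bp), and H3K4me1 at 57.0% (900 bp) and 68.8% (1800 bp). At the 16981 genes with no PolII peak of either condition at the promoter, the start itself lay in H3K27ac in 2.11% (1.90 to 2.34%) and in H3K4me1 in 2.79% (2.55 to 3.05%), the opposite order. Both marks therefore formed a pair of shoulders around a start that few regions covered, and those of H3K4me1 stood further out.

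**Figure D2:**
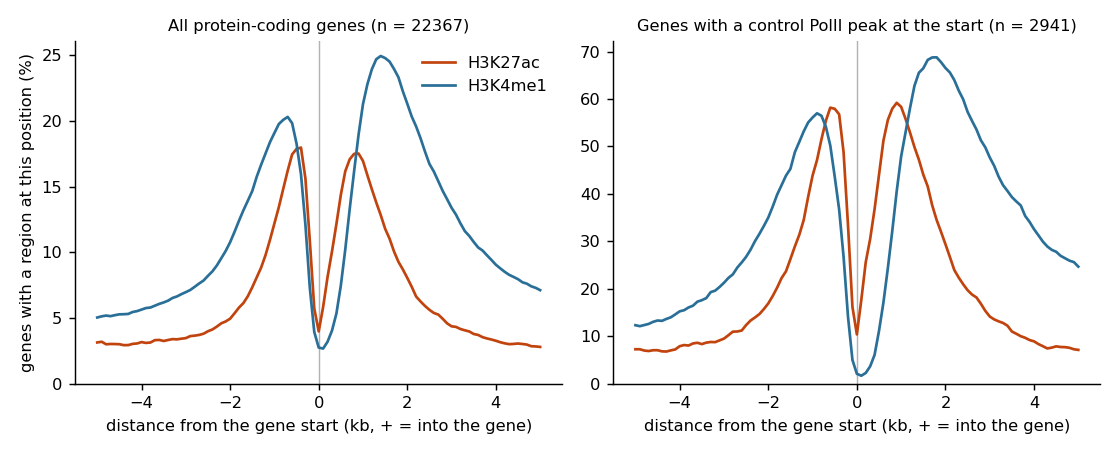
Percent of protein-coding genes (y axis) whose position at a given distance in kb from the gene start, in the direction of transcription (x axis), lay inside an H3K27ac or H3K4me1 region, for all 22367 genes and for the 2941 with control PolII at the promoter. Both marks dip at the start, to 3.99% and 2.76% of all genes, and the H3K4me1 shoulders lie outside those of H3K27ac on both sides.

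The same order held within single genes. Of the 5835 genes with both marks within 3 kb upstream of the start, the H3K27ac edge was nearer in 4338, or 74.3% (73.2 to 75.4%), at a median of 245 bp against 452 bp for H3K4me1. Downstream it was nearer in 5156 of 6425 genes, or 80.2% (79.3 to 81.2%), at 394 against 859 bp. With control PolII at the promoter the shares were 84.4% upstream and 91.0% downstream.

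The study's promoter width, 250 bp on either side of the start, was used first. At that width 4464 promoters held H3K27ac, 20.0% of all 22367, and 2652 held H3K4me1, 11.9%. Both marks were called at 1558 (6.97%), H3K27ac without H3K4me1 at 2906, H3K4me1 without H3K27ac at 1094 and neither at 16809. The width decided how often the marks met. With 1 kb to each side H3K27ac was called at 7879 promoters (35.2%), H3K4me1 at 8295 (37.1%) and both at 6392 (28.6%), while H3K27ac without H3K4me1 fell to 1487.

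PolII, like KAP1 always counted within 250 bp of the start, was more frequent with H3K27ac than with H3K4me1 alone. With the marks also taken within 250 bp, a control PolII peak lay at 42.6% (40.8 to 44.4%) of promoters with H3K27ac but not H3K4me1, at 34.0% (31.6 to 36.3%) of those with both, at 13.0% (11.1 to 15.1%) of those with H3K4me1 alone and at 6.13% (5.78 to 6.51%) of those with neither. With the marks taken within 1 kb the order of the first pair turned, at 36.5% for both marks and 26.9% for H3K27ac without H3K4me1. KAP1 turned in the same way, from 41.5% (H3K27ac without H3K4me1) and 33.1% (both) within 250 bp to 17.8% and 39.2% within 1 kb. The sparse chromosomes 9, 12, 14 and 16 held 531 of the 1487 promoters with H3K27ac but not H3K4me1 within 1 kb. On the other chromosomes PolII lay at 37.5% (36.3 to 38.8%) of promoters with both marks within 1 kb and 34.7% (31.8 to 37.8%) of those with H3K27ac without H3K4me1, so the intervals overlapped, and KAP1 at 40.8% (39.6 to 42.0%) and 24.2% (21.6 to 26.98%).

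Promoters with H3K27ac but not H3K4me1 within 250 bp were rich in CpG, which marks the promoters of widely expressed genes. Where the 250 bases upstream of the start were fully known (22220 genes), they held 16.6 CpG (16.3 to 16.9) in that class, 9.95 with both marks, 10.96 with H3K4me1 alone and 10.5 with neither. At least 5 CpG per 100 bases were found in 66.3%, 31.3%, 38.8% and 34.2% of them. The 2 promoters printed here are the first with both marks and the first with H3K27ac without H3K4me1, in list order, among the plasma protein genes. They run 5′ to 3′ on the strand of the gene, end at the base before its start, and capitals mark CG.
Apoe, both marks, chr7:20284516-20284765, minus strand: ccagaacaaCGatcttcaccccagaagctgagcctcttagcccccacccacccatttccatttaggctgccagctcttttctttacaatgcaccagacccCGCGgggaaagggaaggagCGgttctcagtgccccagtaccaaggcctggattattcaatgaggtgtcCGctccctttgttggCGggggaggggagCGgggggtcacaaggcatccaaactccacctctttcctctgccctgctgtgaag
Alb, H3K27ac without H3K4me1, chr5:90889665-90889914, plus strand: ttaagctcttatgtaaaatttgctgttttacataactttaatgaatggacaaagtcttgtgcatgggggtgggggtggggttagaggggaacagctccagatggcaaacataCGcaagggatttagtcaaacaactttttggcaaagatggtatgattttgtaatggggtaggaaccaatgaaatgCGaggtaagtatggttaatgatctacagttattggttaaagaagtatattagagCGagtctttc
Single genes did not follow the class average. The apolipoprotein gene Apoe, with both marks, held 7 CpG, and the albumin gene Alb, with H3K27ac without H3K4me1, held 3.

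The labelled cell type was checked against listed genes, which are given as distances in bp from the gene start to the nearest region of each mark (0 when the start lies inside one). Of 18 plasma protein and apolipoprotein genes, 6 held H3K27ac, 3 H3K4me1 and 2 both within 250 bp, and 8, 6 and 5 within 1 kb. Over all genes the shares are the 20.0%, 11.9% and 6.97% within 250 bp and the 35.2%, 37.1% and 28.6% within 1 kb given above, against which every list count here is to be read, so 6 of 18 with H3K4me1 and 5 of 18 with both within 1 kb were no more than over all genes. Rbp4, which encodes the retinol carrier, had its start inside both marks, and Apoe lay 128 bp from H3K27ac and 151 bp from H3K4me1, with control PolII and KAP1. Alb lay 78 bp from H3K27ac but 3223 bp from H3K4me1. Afp, the fetal counterpart of albumin and a hepatoma marker, started inside H3K27ac and lay 1095 bp from H3K4me1. Apoa2 showed the opposite, starting inside H3K4me1 with H3K27ac 970 bp away. Apob and Serpina1a (chromosome 12), Apoa1 and Apoc3 (chromosome 9) and Ahsg (chromosome 16) had neither mark within 1 kb and lie on the chromosomes with sparse lists described below. Fga and Fgg (chromosome 3), F2 (chromosome 2) and Ttr (chromosome 18) had neither mark within 1 kb either and lie on other chromosomes.

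Of 15 liver transcription factor genes, 6 held H3K27ac and 3 both marks within 250 bp (20.0% and 6.97% over all genes), and 8 and 6 did within 1 kb (35.2% and 28.6%). Nr5a2, a nuclear receptor of bile acid and cholesterol metabolism, started inside both marks and carried 14 H3K27ac and 13 H3K4me1 regions over its body. Foxa2, a pioneer factor, started inside H3K27ac and lay 80 bp from H3K4me1, and the bile acid receptor gene Nr1h4 started inside H3K4me1 with H3K27ac 59 bp away. Hnf4a lay 177 bp from H3K27ac and 321 bp from H3K4me1, and Foxa3 173 and 1387 bp. Of the 15, 7 had neither mark within 1 kb, among them the pioneer factor gene Foxa1 on the sparse chromosome 12, at 6514 bp from H3K27ac and 5179 bp from H3K4me1, and Cebpa, at 8055 and 1469 bp.

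Genes of mature hepatocyte metabolism carried few regions. Of 12 hepatocyte metabolism genes, among them the cytochrome gene Cyp7a1 and the urea cycle gene Cps1, 0 held either mark within 250 bp (20.0% with H3K27ac over all genes), and 1 held both within 1 kb (28.6%). The promoters of the listed neuron (6), muscle (5) and endothelium (5) genes held 0 of either mark within 250 bp (20.0% and 11.9% over all genes) and 0 within 1 kb (35.2% and 37.1%). Of 6 blood genes only Cd68 held a mark (H3K4me1), of 5 stroma genes Col1a1 held both and Pdgfra H3K27ac, and of 4 bile duct genes Krt19 held both and Krt7 and Epcam H3K4me1. Within 1 kb all 4 bile duct genes held H3K4me1, and of 4 genes of pluripotent cells only Dppa3 held a mark, and it held both.

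Of 10 housekeeping genes, 6 held H3K27ac and 3 H3K4me1 within 250 bp (20.0% and 11.9% over all genes), and 9 (all but Hprt) held both within 1 kb (28.6%). Actb lay 103 bp from H3K27ac and 152 bp from H3K4me1, and Polr2a, the large subunit of PolII, 110 and 559 bp. Gapdh started inside H3K27ac and lay 736 bp from H3K4me1. Of the 9, 8 had H3K27ac nearer, counting the nearest region on either side. The 74.3% upstream and 80.2% downstream over all genes with both marks count 1 side at a time within 3 kb, so the measures are unlike. The exception, Eef1a1, a translation factor gene, lay 176 bp from H3K4me1 and 201 bp from H3K27ac.

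Of 10 immediate early genes, which respond to growth signals within minutes, 3 held each mark and 2 both within 250 bp, and 5 held H3K27ac and 7 H3K4me1 within 1 kb, against 20.0%, 11.9% and 6.97%, and 35.2% and 37.1%, over all genes. Ier2 lay 109 bp from H3K27ac and 216 bp from H3K4me1, Ier5 180 and 167 bp, and Junb 284 and 200 bp. Fos and Jun are named because they encode AP-1 subunits, a choice made after their values were seen. Fos, on chromosome 12, lay 99010 bp from H3K27ac but 664 bp from H3K4me1, and Jun lay 49149 bp from H3K27ac and 1152531 bp from H3K4me1. Myc, a growth regulator, lay 148 bp from H3K27ac and 524 bp from H3K4me1.

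Of the 17 genes of the enzymes and readers that handle H3K4 and H3K27, 6 held H3K27ac, 1 H3K4me1 and 0 both within 250 bp, and 13, 11 and 8 did within 1 kb. Over all genes 11.9% held H3K4me1 and 6.97% both within 250 bp, so the 1 and 0 of 17 were near or below those shares, and within 1 kb the shares were 35.2%, 37.1% and 28.6%. Ep300, which encodes p300, lay 258 bp from H3K27ac and 619 bp from H3K4me1, and Crebbp, which encodes CBP, 893 and 720 bp. Kat2a, an acetyltransferase gene, lay 56 and 640 bp from the marks, and the methyltransferase gene Mll2 started inside H3K27ac with H3K4me1 952 bp away. The demethylase gene Kdm6b started inside H3K4me1 with H3K27ac 1787 bp away.

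Over all regions, 39035 H3K27ac regions, or 67.8% (67.4 to 68.2%), overlapped H3K4me1, and 36305 H3K4me1 regions, or 49.1% (48.7 to 49.4%), overlapped H3K27ac. This left 18527 H3K27ac-only and 37709 H3K4me1-only regions. The bases under both marks came to 30.3 Mb, which was 60.03% of the 50.5 Mb under H3K27ac and 42.5% of the 71.3 Mb under H3K4me1. Overlapping regions were wider. Their median width was 672 bp against 344 bp for H3K27ac (ratio 1.95, 1.90 to 2.01) and 958 against 421 bp for H3K4me1 (ratio 2.28, 2.23 to 2.32), and with regions of 1 list merged across 500 bp the H3K27ac ratio was 3.12. A wide region has more room to meet another, so width and class cannot be told apart here.

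**Figure D3:**
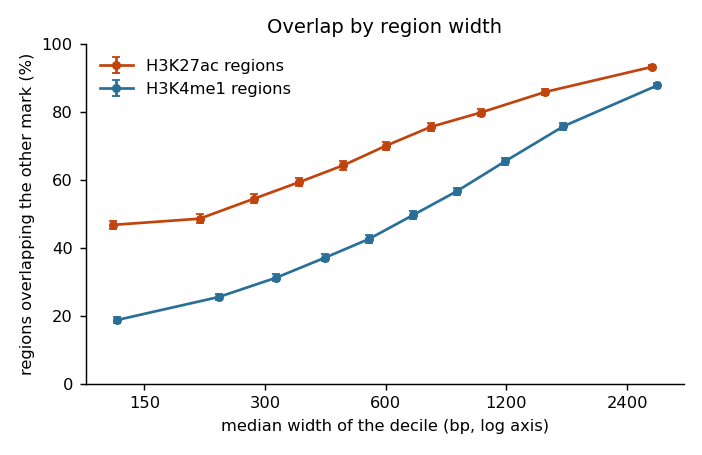
Percent of regions overlapping the other mark (y axis) by the median width in bp of each decile of the list (x axis, log scale), for both marks, with 95% Wilson intervals as error bars. From the narrowest to the widest decile the share went from 46.8% to 93.2% for H3K27ac and from 18.8% to 87.8% for H3K4me1, and the H3K27ac curve lies above that of H3K4me1 throughout.

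Where the marks met, one usually lay within or across the other as a single pair. Of the overlapping H3K27ac regions 36.0% lay fully inside an H3K4me1 region, 28.4% of the overlapping H3K4me1 regions lay fully inside H3K27ac, and 92.6% and 86.8% had a single partner. When both lists were merged, 32714 domains held both marks with a median width of 1359 bp. H3K4me1 formed both ends in 27.4% of these domains and H3K27ac both ends in 24.3%. The other 48.3% had each mark at 1 end or an end position shared by both. With neighbouring regions merged across gaps of up to 500 bp these were 32.7%, 18.7% and 48.5%, and the median width was 2102 bp. The single-mark classes differed in how close the other mark came: 30.2% of H3K27ac-only regions had H3K4me1 within 500 bp (median gap 1.35 kb), against 12.1% of H3K4me1-only regions with H3K27ac (6.63 kb).

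Single-mark regions also differed in where they lay. H3K27ac-only regions were centred within 1 kb of a TSS in 21.4% (20.8 to 22.0%) and H3K4me1-only regions in 11.3% (10.97 to 11.6%), a ratio of 1.89 (1.82 to 1.97). The ratio was 3.74 within 250 bp and 1.13 within 3 kb. In the band from 1 to 3 kb the order turned, with 6.78% of H3K27ac-only and 13.7% of H3K4me1-only regions, and overlapping H3K4me1 regions were the most frequent there (18.4%). Introns held 20.9% of H3K27ac-only and 30.9% of H3K4me1-only regions, against 30.2% of the genome.

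The difference in CpG content between the single-mark classes changed sign with distance from a TSS. The central 500 bp of H3K27ac-only regions held 7.61 CpG (7.47 to 7.76) and of H3K4me1-only regions 5.08 (5.04 to 5.12), a difference of 2.53 (2.38 to 2.68). Within 1 kb of a TSS the values were 19.5 and 8.51. More than 3 kb away they were 4.09 and 4.53, a difference of -0.44 (-0.52 to -0.36).

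H3K9me3, control PolII and KAP1 fell on the classes in different ways. An H3K9me3 region overlapped 13.5% (13.2 to 13.9%) of H3K4me1-only but 0.85% (0.73 to 0.99%) of H3K27ac-only regions, a ratio of 0.0627 (0.0536 to 0.0734). A KAP1 peak overlapped 9.41% (9.001 to 9.84%) of H3K27ac-only and 3.38% (3.20 to 3.57%) of H3K4me1-only regions, a ratio of 2.79 (2.60 to 2.99). Of overlapping regions KAP1 met 16.3% on the H3K27ac list and 14.8% on the H3K4me1 list. Control PolII met 9.35% of overlapping and 7.18% of H3K27ac-only regions, but 6.92% of overlapping and 1.74% of H3K4me1-only regions.

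**Figure D4:**
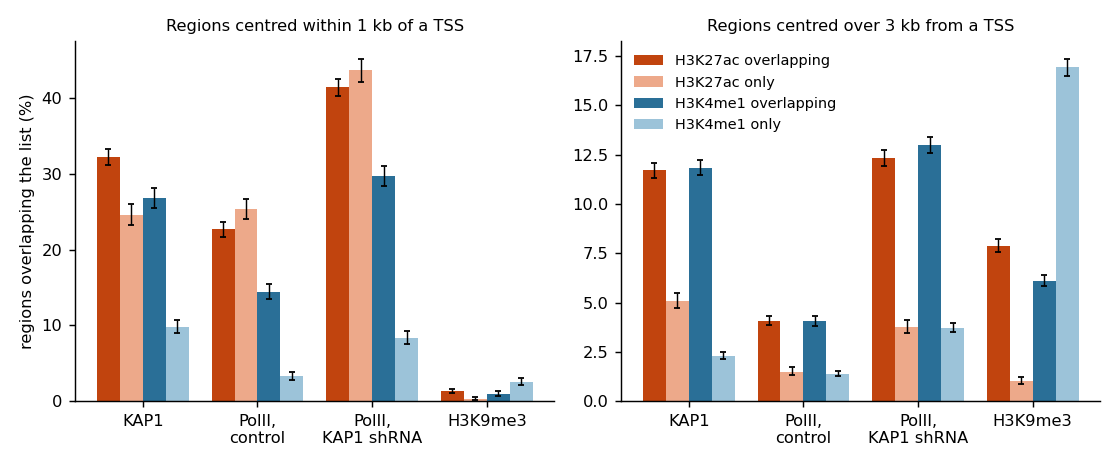
Percent of regions (y axis) of the 4 classes that overlapped a KAP1, PolII (control or KAP1 shRNA) or H3K9me3 call, with 95% Wilson intervals as error bars, for regions centred within 1 kb of a TSS (left) and over 3 kb from one (right, on another scale). H3K9me3 lies highest over distal H3K4me1-only regions (16.9%), and control PolII near a TSS lies highest over H3K27ac-only regions (25.3%).

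The PolII ratio of overlapping to H3K27ac-only regions, 1.30 (1.23 to 1.38) over all regions, depended on distance, width, chromosomes and the overlap rule. It reversed to 0.775 when the overlap had to cover at least 0.5 of the shorter region, and it was 2.53 with regions of 1 list merged across 500 bp. More than 3 kb from a TSS, control PolII met 4.10% (3.86 to 4.34%) of overlapping and 1.51% (1.32 to 1.73%) of H3K27ac-only regions, a ratio of 2.71 (2.34 to 3.15). Within 1 kb it met 22.6% and 25.3%, a ratio of 0.895 (0.836 to 0.958). From the narrowest to the widest quintile of the H3K27ac list the share rose from 2.30% to 16.2% in overlapping regions and stood at 7.603% and 6.66% in H3K27ac-only regions. Without chromosomes 9, 12, 14 and 16 the ratio over all regions was 1.13. After KAP1 shRNA, PolII peaks met 20.4% of overlapping and 13.4% of H3K27ac-only regions. That list was longer than the control list, and the 2 lists come from 1 library each.

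The widest regions of each class are given by position. The 3 widest overlapping H3K27ac regions were chr10:96884022-96911096 (27075 bp, 44.7 kb from the start of Dcn), chr4:63981957-64008672 (26716 bp, nearest gene start Tnc, 314 kb away) and chr15:61275479-61299378 (23900 bp, nearest gene start Myc, 529.5 kb away), and all 3 overlapped KAP1 and control PolII, the one on chromosome 15 also H3K9me3. Dcn and Tnc encode matrix proteins. The widest H3K27ac-only region was chr5:87415273-87425131 (9859 bp), 9.68 kb from the start of the glucuronosyltransferase gene Ugt2b35. The widest overlapping H3K4me1 region, chr15:96232025-96274882 (42858 bp), and the widest H3K4me1-only region, chr1:83189790-83225751 (35962 bp), both overlapped H3K9me3.

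The lists were uneven along the genome, and this bears on every share above. Chromosomes 9, 12, 14 and 16 (17.7% of the genome) carried 13.5 H3K27ac and 8.86 H3K4me1 regions per Mb, against 23.6 and 30.2 on the others without 15 and X. Only 30.5% of their H3K27ac regions overlapped H3K4me1, against 71.7%, and they held 23.7% of all H3K27ac-only regions. KAP1 (1.83 against 5.52 per Mb), control PolII (0.614 against 2.17) and PolII after KAP1 shRNA (1.83 against 5.35) were sparse there too. H3K9me3 stood at 12.9 against 24.8 per Mb over the 4 together. It was lowest on chromosomes 9 (6.58) and 16 (8.95), while on 12 (19.8) and 14 (15.5) it was above or close to the 15.6 per Mb of chromosome 8. Chromosome 15 was dense, at 38.5 H3K27ac and 90.7 H3K4me1 regions per Mb. No cause of this unevenness was tested. The gene-start order was also seen on the sparse chromosomes, where the H3K27ac edge was nearer in 80.4% upstream and 87.6% downstream, and AP-1 was found in 33.8% of their distal spaces.

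**Figure D5:**
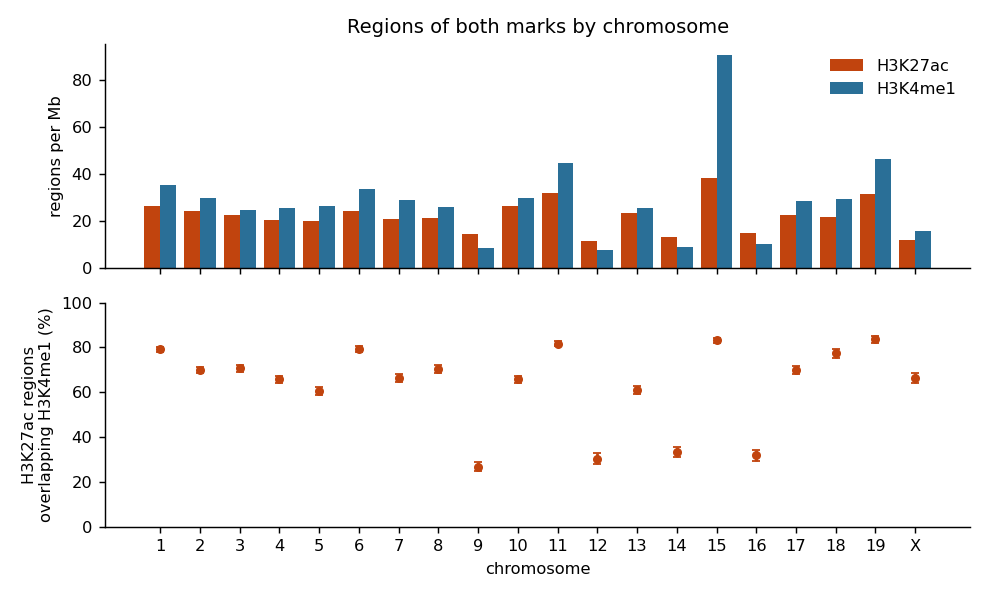
H3K27ac and H3K4me1 regions per Mb on each chromosome (top, bars), and the percent of H3K27ac regions overlapping H3K4me1 with 95% Wilson intervals (bottom, points). Chromosomes 9, 12, 14 and 16 lie lowest in overlap (30.5% together) and chromosome 15 highest in density (38.5 and 90.7 regions per Mb).

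A few megabases held most of the H3K27ac regions that overlapped both H3K4me1 and H3K9me3. In 12 windows of 1 Mb with at least 40 such regions, 0.452% of the genome, lay 1439 of the 2327, or 61.8%. They fell on chromosomes 1, 5, 8, 9, 11 and X. Those on chromosome X held the most, with 163, 242, 181, 211 and 103 such regions. Windows on other chromosomes included the Sp100, Speer4 and Defb gene clusters, families of gene copies whose identity was not measured here. How the authors treated reads that match several copies is not given in the sources used here, so calls in these windows are uncertain. Without these windows, H3K9me3 met 2.38% in place of 5.96% of overlapping H3K27ac regions, and 11.2% in place of 13.5% of H3K4me1-only regions.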

How the data were processed

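ChIP-seq reads of 1 library per antibody were mapped by the authors with Bowtie to mm9, as stated in the methods of the study. For peaks of KAP1 and PolII the authors used MACS with the input as control, and for histone regions ChIP-Part, whose options are not given in the sources used here. The deposited lists hold start and end positions in bp (kind: other), and their scores, where present, were not used. Columns 4 and 5 of the histone lists are blank. Depth is not known.

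Regions overlapped when they shared at least 1 bp. Distances run from region centres to 69963 TSS of protein-coding transcripts (GENCODE M1, NCBIM37), and promoters span 250 bp to each side of 22367 gene starts. The ratio of 2 shares carries a log-normal interval. Spaces of 200 to 1000 bp between neighbouring regions of 1 list, and windows and tiles of 200 bp, were searched on both strands for TGANTCA (AP-1), TGTTTAC (FOXA), GTTAATNAT (HNF1), CAAAGTCCA (HNF4), TTNNGCAA (C/EBP), ACATTCCA (TEAD), GGGCGG (SP/KLF), CCGGAAGT (ETS), GCGCATGCG (NRF1), AAGATGGCG (YY1) and AGGGGGCGC (CTCF). Of these, CTCF and SP/KLF matches can share bases. Scripts were tested on simulated data and ran in Python 3.11.15 with numpy 2.4.6, pandas 2.3.3, numba 0.67.0, matplotlib 3.10.9 and samtools 1.23.1.

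Members and gene lists were chosen with earlier results of these data known. The members of 6 gene lists and of the cell type marker lists were all counted, and values are printed for up to 30 genes, in list order within each combination of marks. Named regions are among the 3 widest of each class. The searches of spaces and motifs, the gene-start profiles, the dense megabases and the chromosome sets were added after the data had been seen. The inputs were not analysed here, and PolIII values are not reported. Alternatives changed the overlap, the distances, the widths, the merging of regions and the chromosomes. Some genes and sequences that these rules select are not reported here.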

Additional observations from a re-analysis of the deposited data

How the results depend on the processing

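Of 88 alternative values of 14 results, 36 moved by less than their interval (for counts, by less than 1.5 times). Another 48 moved further without reversing, whether toward or away from no difference, and 4 reversed. Alternatives that leave out chromosomes 9, 12, 14 and 16 or the dense megabases, that split by width within the PolII result or by a TSS within 1 kb, and all those of the AP-1 share were chosen after seeing the data. The cause of these changes was not tested. The PolII ratio reversed to 0.775 with an overlap of at least 0.5 of the shorter region, 0.302 in the narrowest quintile of width and 0.895 within 1 kb of a TSS, and the CpG difference to -0.44 over 3 kb from a TSS. The PolII ratio moved to 2.53 with regions merged across 500 bp, 1.76 with 500 bp kept clear around single-mark regions, 1.52 with the KAP1 shRNA list, 2.71 over 3 kb from a TSS, 1.13 without chromosomes 9, 12, 14 and 16 and 2.43 in the widest quintile. The TSS ratio moved to 1.78 (merged), 3.74 (250 bp), 1.13 (3 kb), 1.78 (TSS of any transcript), 1.505 (region edges), 1.59 (500 bp clear), 1.66 (without chromosome 15) and 2.05 (without 9, 12, 14 and 16). The KAP1 ratio moved to 2.02 (merged), 2.38 (500 bp clear), 3.66 (0.5 overlap), 2.19 (over 3 kb from a TSS), 2.55 (without chromosome 15) and 3.23 (without 9, 12, 14 and 16). The H3K9me3 ratio moved to 0.0517 (0.5 overlap), 0.0736 (without X and Y), 0.0751 (without 9, 12, 14 and 16) and 0.0755 (without dense megabases, the rest being sorted into classes anew, against 0.0736 with the classes kept). The width ratio of H3K27ac moved to 3.12 (merged), 1.88 (500 bp clear), 2.01 (without X and Y), 2.06 (without 9, 12, 14 and 16) and 2.03 (without dense megabases), and that of H3K4me1 to 3.01 (merged) and 2.34 (without 9, 12, 14 and 16). The CpG difference moved to 1.44 (500 bp clear), 0.73 (central 200 bp), 11.02 (within 1 kb of a TSS) and 3.07 (without 9, 12, 14 and 16). Overlapping regions at or above the median width numbered 19056 (H3K27ac) and 18610 (H3K4me1). Promoters with both marks, H3K27ac without H3K4me1 and H3K4me1 without H3K27ac numbered 6392, 1487 and 1903 with 1 kb to each side and 254, 638 and 363 at the start itself. The AP-1 share moved to 34.4% (200 to 300 bp wide), 14.2% (over 500 bp), 26.3% (without 9, 12, 14 and 16), 28.2% (without dense megabases) and 28.1% (without X and Y). No paired analysis was possible because each antibody had 1 library. With positions only, an absent call cannot be told apart from low depth, and a weak region counts as much as a strong one.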
